A study of Oryza sativa Japonica Group with 8 samples.

Results

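Genes of the Polycomb and DNA methylation machinery were followed in young inflorescence meristems of rice carrying the osg1l2 mutation and of wild type plants. The genes were named by their RAP identifiers: 5 of the Polycomb side (SDG711, SDG718, EMF2b, FIE1 and VIL2) and 3 DNA methyltransferases (MET1b, DRM2 and CMT3a). The name FIE1 stands throughout for the row Os08g0137100 only, since the level of that row goes against the known pattern of FIE1. The 8 genes are among the 37859 in the deposited table. The rule that picked them uses no measured value, but they were chosen with earlier results of these data known. Of the libraries, 4 came from the osg1l2 single mutant, a mutant of the ALOG family gene OsG1L2, and 4 from a wild type control. All plants were of the cultivar Nipponbare. Growth started in a long-day chamber (16 h of light, 8 h of darkness) and ended with 12 days of short-day induction (12 h of each), at 28°C by day, 26°C by night and 70% humidity. The tissue was dissected at early stages of panicle development, and the labels do not give the allele, the number of lines or the number of plants behind a library.

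Polycomb repressive complex 2 places the repressive mark H3K27me3 on histone H3 and keeps developmental genes silent. Its catalytic subunit is a homolog of Drosophila Enhancer of zeste, and a zinc-finger subunit of the EMF2 type and a WD40 subunit of the FIE type are needed for its activity. In plants, PHD-finger proteins of the VIN3-like type associate with the complex at flowering genes. DNA methylation is a separate silencing layer, in which MET1 enzymes maintain methylation at CG sites, CMT3 enzymes act at CHG sites in chromatin marked by H3K9me2, and DRM2 enzymes are directed by small RNAs.

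The deposited values per library are FPKM, which is fragment abundance scaled by gene length and library size. The levels of different genes can thus be set in order, and the orders and ratios given here hold for these FPKM only. FPKM summed to between 213940 and 221906 per osg1l2 library and between 218558 and 231675 per wild type library. Read depth is unknown because the files hold no counts. The RefSeq gene table listed 4 of the 8 symbols (SDG718, MET1b, DRM2 and CMT3a), each on the chromosome that the RAP identifier gives. The deposited tables pair no identifiers with names, and the RefSeq table holds 1 of their identifiers, so neither the OsG1L2 transcript nor meristem marker genes were analysed here, and the genotype and tissue labels were not checked against them.

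None of the 8 genes passed the test of osg1l2 against wild type. The test was limma on log2(FPKM + 1) with Benjamini-Hochberg adjustment over the 18254 genes whose mean reached 1 FPKM, and calls needed an adjusted p under 0.05. All 8 genes passed the level filter, and 0 of 8 were called, where 1.93% of all tested genes were. The adjusted p in limma ranged from 0.15 to 0.90. At an unadjusted limma p under 0.05 there were 2 of 8 (FIE1 and VIL2), where 19.5% of all tested genes were under that value. In the authors' deposited table q lay between 0.35 and 0.98 for the 8 genes, and 2.02% of its entries had q under 0.05. In bulk tissue, a difference in RNA per cell and a difference in the proportion of cells that express a gene cannot be told apart.

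**Figure D1:**
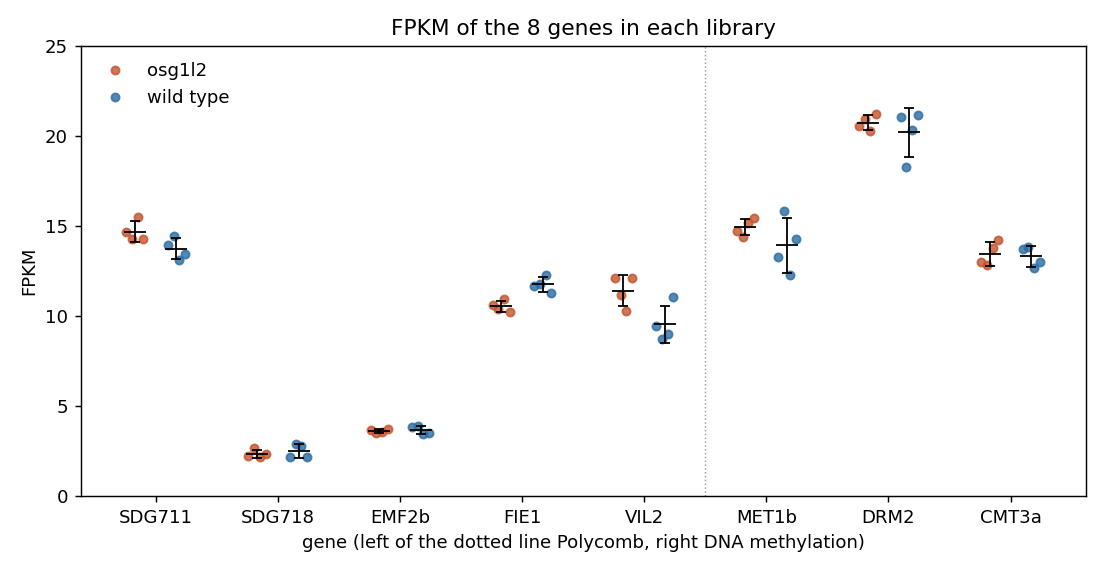
FPKM (vertical axis) of each gene in the 4 osg1l2 libraries (left of each pair) and the 4 wild type libraries (right), with the mean and SD as bars. DRM2 is the highest gene in every library and SDG718 the lowest; with all libraries the genotypes overlap in every gene but FIE1.

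The catalytic subunits of the complex were at unequal levels in both genotypes. SDG711 (Os06g0275500, on chromosome 6 by its identifier), the rice homolog of CURLY LEAF, is known to delay flowering in long days. It had 14.7, 14.3, 15.5 and 14.3 FPKM in the osg1l2 libraries 1 to 4, against 13.9, 14.5, 13.1 and 13.4 FPKM in the wild type libraries 1 to 4. The highest wild type library stood within the osg1l2 range, so the genotypes overlapped. The log2 fold change was 0.09 (SE 0.050, 95% interval -0.02 to 0.20, limma adjusted p = 0.37). SDG718 (Os03g0307800, chromosome 3), also called EZ1, is the second Enhancer of zeste homolog and is known to act in flowering in short days. It had 2.21, 2.68, 2.16 and 2.35 FPKM in the osg1l2 libraries, against 2.18, 2.88, 2.77 and 2.15 FPKM in the wild type libraries. In wild type the values lay in 2 pairs, and the osg1l2 values lay between the lowest and the highest of them. Its log2 fold change was -0.06 (SE 0.089, interval -0.26 to 0.14, limma adjusted p = 0.77). The size of this value depended on single libraries: it was -0.0046 without wild type replicate 2 and -0.019 without wild type replicate 3, but -0.10 without wild type replicate 1, wild type replicate 4 or osg1l2 replicate 2. It was -0.038 without osg1l2 replicate 1 and -0.030 without osg1l2 replicate 3.

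Within a library the scaling of the library cancels from a ratio of genes. SDG711 stood at 6.63, 5.31, 7.17 and 6.08 times SDG718 in the osg1l2 libraries, against 6.39, 5.02, 4.74 and 6.24 times in the wild type libraries. The mean ratio was 6.30 ± 0.79 in osg1l2 and 5.60 ± 0.84 in wild type (SD, n = 4 each), with overlapping values. SDG711 was thus the more abundant catalytic transcript in each of the 8 libraries, by 4.74 times or more.

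The zinc-finger and WD40 subunits were at different levels from each other. EMF2b (Os09g0306800, chromosome 9), a Suppressor of zeste 12 homolog needed for normal floret development in rice, had 3.67, 3.53, 3.55 and 3.74 FPKM in osg1l2, against 3.87, 3.90, 3.44 and 3.53 FPKM in wild type. The osg1l2 values all lay within the wild type range. Its log2 fold change was -0.02 (SE 0.054, interval -0.14 to 0.10, limma adjusted p = 0.88).

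FIE1 (Os08g0137100, chromosome 8) is a homolog of Drosophila Extra sex combs, the WD40 subunit that binds the catalytic one. With all libraries it was the only one of the 8 genes whose genotypes did not overlap. It had 10.6, 10.4, 11.0 and 10.2 FPKM in the osg1l2 libraries, against 11.7, 11.8, 12.3 and 11.3 FPKM in the wild type libraries. Every osg1l2 library was below every wild type library, in the direction in which 7.69% of all tested genes were separated (4.11% were separated upward, and 11.8% either way). Leaving out a library cannot undo such a separation, and overlap after rescaling was not checked. The means were 10.6 ± 0.31 FPKM in osg1l2 and 11.8 ± 0.39 FPKM in wild type (SD, n = 4 each). The log2 fold change was -0.14 (SE 0.046, interval -0.25 to -0.04), and the limma adjusted p of 0.15 did not pass. When libraries were rescaled by median-of-ratios, the log2 fold change of FIE1 was -0.10, and its interval then held 0 (-0.21 to 0.01).

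In rice FIE1 is known for expression in the endosperm, while a neighbouring paralog, FIE2, is known to be expressed broadly. The row Os08g0137100, listed under the name FIE1, exceeded 10.2 FPKM in all 8 of these meristem libraries and stood above 87.5% of all genes in osg1l2 and 88.5% in wild type. That level goes against the known endosperm pattern of FIE1. Of the 11 other identifiers that begin Os08g0137, 6 were listed at 0 in all libraries and 1 reached 1 FPKM in any library; the tables do not name them. Whether this row holds reads of FIE1, of the paralog or of both was not tested, and the name is used here for the row only.

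VIL2 (Os12g0533500, chromosome 12), a VIN3-like PHD-finger protein known to bind the EMF2b-containing complex and to promote flowering in rice, had the largest difference of the 8 genes. It had 12.1, 11.1, 10.3 and 12.1 FPKM in the osg1l2 libraries, against 9.44, 8.73, 9.00 and 11.0 FPKM in the wild type libraries. Wild type replicate 4 stood above osg1l2 replicate 3, so the genotypes overlapped. The means were 11.4 ± 0.87 FPKM in osg1l2 and 9.55 ± 1.03 FPKM in wild type (SD, n = 4 each), a ratio of 1.20. The log2 fold change of 0.24 (SE 0.079, interval 0.06 to 0.41) did not pass, with a limma adjusted p of 0.16. In size it exceeded 87.3% of the log2 fold changes of all tested genes. The authors' deposited table gave VIL2 a log2 fold change of 0.31 with q = 0.35. Without wild type replicate 4 the value from limma was 0.30, and without wild type replicate 2 it was 0.20; the adjusted p in limma was 0.12 and 0.18 in these fits.

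The 3 DNA methyltransferases were all expressed, and with all libraries their genotypes overlapped. MET1b (Os07g0182900, chromosome 7), the main maintenance methyltransferase for CG sites in rice, had 14.8, 14.4, 15.2 and 15.5 FPKM in the osg1l2 libraries, against 13.3, 15.8, 12.3 and 14.3 FPKM in the wild type libraries. All 4 osg1l2 values lay within the wild type range, which wild type replicates 2 and 3 set. The log2 fold change was 0.10 (SE 0.072, interval -0.06 to 0.26, limma adjusted p = 0.48). Single wild type libraries moved this value in both directions. Without wild type replicate 2 it was 0.16 (interval 0.03 to 0.29, limma adjusted p = 0.14), and without wild type replicate 3 it was 0.046 (interval -0.11 to 0.20, limma adjusted p = 0.78). The overlap rests on wild type replicate 2: the other wild type libraries reached 14.3 FPKM at most, and the lowest osg1l2 library had 14.4 FPKM. Without that library SDG711 and MET1b stood apart as well as FIE1, 3 of 8, where 23.6% of all tested genes did. Without wild type replicate 4, FIE1 and VIL2 stood apart, 2 of 8, where 14.5% of all tested genes did. The same 2 genes stood apart without osg1l2 replicate 3, where 15.8% of all tested genes did.

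DRM2 (Os03g0110800, chromosome 3), which sets methylation at sites matched by small RNAs, was the most abundant of the 8 genes. It had 20.5, 20.9, 20.3 and 21.2 FPKM in osg1l2, against 21.0, 18.3, 20.3 and 21.2 FPKM in wild type. Wild type replicate 2 was low, and the other 7 libraries lay between 20.3 and 21.2 FPKM. The log2 fold change was 0.04 (SE 0.055, interval -0.08 to 0.16, limma adjusted p = 0.74), and without wild type replicate 2 it was -0.0064. CMT3a (Os10g0104900, chromosome 10), the CHG methyltransferase, had 13.0, 12.8, 13.8 and 14.2 FPKM in osg1l2, against 13.7, 13.8, 12.7 and 13.0 FPKM in wild type. Its log2 fold change was 0.02 (SE 0.053, interval -0.10 to 0.13, limma adjusted p = 0.90), the smallest in size of the 8.

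Ratios among the methyltransferases were compared in the same way. CMT3a stood at 0.882, 0.891, 0.909 and 0.921 times MET1b in the osg1l2 libraries, against 1.03, 0.873, 1.03 and 0.912 times in the wild type libraries. DRM2 stood at 1.39, 1.45, 1.34 and 1.37 times MET1b in osg1l2, against 1.58, 1.15, 1.65 and 1.48 times in wild type. In both ratios the osg1l2 libraries lay inside the wild type range. For DRM2 over MET1b this rests on wild type replicate 2, at 1.15: the other 3 wild type libraries, at 1.48 or more, all exceeded the highest osg1l2 library, at 1.45. The other ratios overlapped with any 1 library left out. In the authors' deposited table CMT3a stood above MET1b in both genotypes, so the order of these genes depends on the values used.

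**Figure D2:**
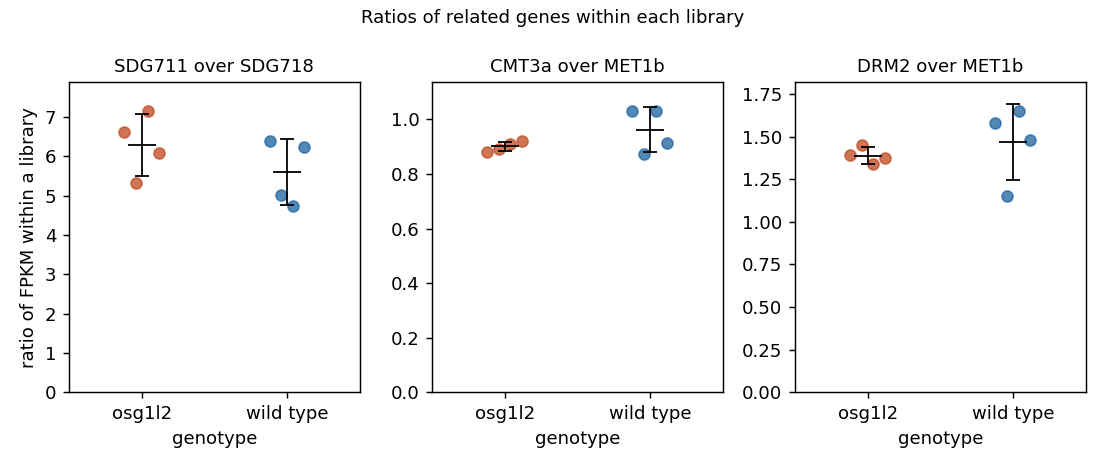
Ratio of FPKM of related genes within each library (vertical axis, from 0) for the 4 osg1l2 libraries (left) and the 4 wild type libraries (right), with mean and SD. SDG711 exceeds SDG718 in every library, and the genotypes overlap in all 3 ratios, for DRM2 over MET1b through wild type replicate 2 alone.

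The order of the levels was nearly the same in the genotypes. In osg1l2 it ran DRM2 (20.7 ± 0.40 FPKM), MET1b (14.9 ± 0.47), SDG711 (14.7 ± 0.58), CMT3a (13.5 ± 0.66), VIL2, FIE1, EMF2b (3.62 ± 0.097) and SDG718 (2.35 ± 0.23; SD, n = 4). In wild type it ran DRM2 (20.2 ± 1.34 FPKM), MET1b (13.9 ± 1.52), SDG711 (13.7 ± 0.59), CMT3a (13.3 ± 0.56), FIE1, VIL2, EMF2b (3.69 ± 0.23) and SDG718 (2.50 ± 0.38; SD, n = 4). VIL2 and FIE1 stood in opposite order: in osg1l2 their library values overlapped, and in wild type they did not. MET1b and SDG711 overlapped in both genotypes, and SDG711 and CMT3a overlapped in wild type only as ranges, with SDG711 the higher in all 4 libraries. All other neighbours in these orders stood apart. DRM2 was first, EMF2b seventh and SDG718 eighth in each of the 8 libraries. Among all genes of the table, DRM2 stood above 94.4% in osg1l2 and 94.1% in wild type, and SDG718 above 62.6% in osg1l2 and 63.0% in wild type.

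Across the 8 genes the differences were small and of both signs. The log2 fold change was above 0 for 5 genes and below 0 for 3, with a median of 0.03, while over all tested genes 38.3% were above 0 and the median was -0.04. Median-of-ratios rescaling shifted the median of all tested genes to 0.0022 and that of the 8 genes to 0.07, and EMF2b then had a value above 0. The median size regardless of sign was 0.07 for the 8 genes and 0.09 for all tested genes. The intervals of 6 genes held 0, and no interval of the 8 reached a log2 change of 0.5 in either direction; they ran at most from -0.26 to 0.41. These intervals take the authors' scaling of the libraries as given, and over all settings tried the outermost bounds were -0.35 and 0.47.

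**Figure D3:**
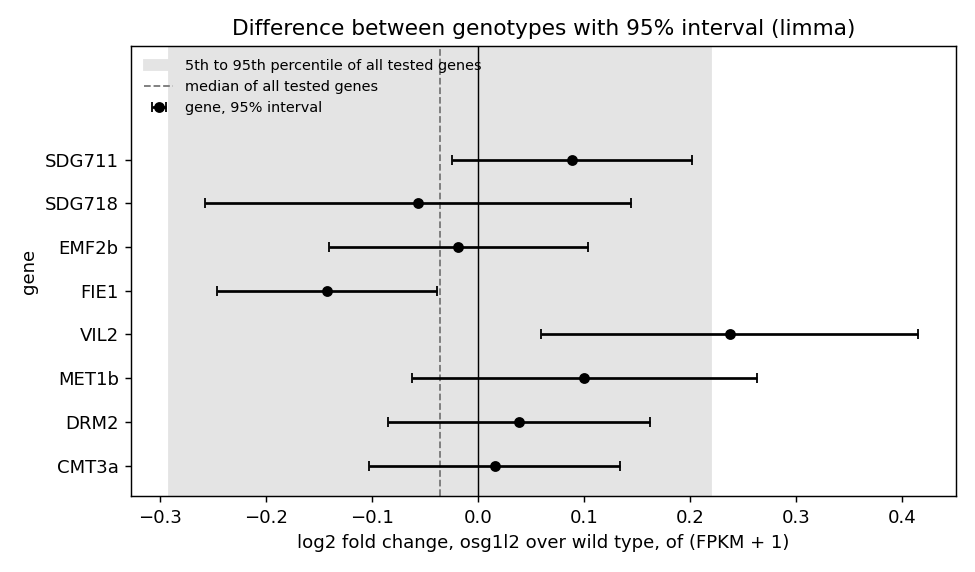
Log2 fold change of FPKM + 1, osg1l2 over wild type (horizontal axis), with the 95% interval from limma for each gene (rows); the grey band spans the 5th to 95th percentile of all tested genes and the dashed line is their median. Only VIL2, at 0.24, has its point outside the band (-0.29 to 0.22), and the intervals of FIE1 and VIL2 leave out 0.

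The spread between libraries was narrow for most of the 8 genes. The SD within genotypes on the log2(FPKM + 1) scale had a median of 0.065 for the 8 genes and 0.11 for all tested genes. FIE1 had the smallest, 0.041, and only 2.37% of all tested genes had a smaller one. SDG718, with the lowest level of the 8, had the largest, 0.13. In this SD, SDG718, VIL2 and MET1b exceeded 65.3%, 58.8% and 49.5% of all tested genes, and the remaining genes 17.3% or less. The tested genes were not matched to the 8 by level. The SD of FPKM was smaller in osg1l2 than in wild type for 7 of the 8 genes (all but CMT3a), where this held for 54.1% of all tested genes; MET1b had 0.47 in osg1l2 and 1.52 in wild type, and DRM2 0.40 in osg1l2 and 1.34 in wild type. Wild type replicate 2 held the highest MET1b value and the lowest DRM2 and VIL2 values of the 8 libraries, and library quality weights gave it the lowest weight, 0.404.

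Likeness of profile was measured as the Euclidean distance between log2(FPKM + 1) values over the 8 libraries, after each gene's own mean was subtracted. The closest pair among the 8 genes was EMF2b and CMT3a, at a distance of 0.11. Seen from EMF2b, CMT3a was the 54th nearest of 18253 other tested genes, and seen from CMT3a, EMF2b was the 63rd. Both were nearly flat across libraries, at distances of 0.14 (EMF2b) and 0.15 (CMT3a) from a flat profile. DRM2, at 0.18 from a flat profile, lay 0.26 from EMF2b and 0.25 from CMT3a. Flat profiles can lie close without varying together, and whether EMF2b and CMT3a vary together was not tested. MET1b had SDG711 as its 186th nearest gene, but SDG711 had MET1b only as its 1090th. FIE1 and VIL2, the genes with the largest differences, were at 0.66, and SDG718 and VIL2 were at 0.68. The profiles hold the difference between genotypes, so large differences of opposite sign set genes apart by construction. The nearest of all tested genes to VIL2 was Os04g0467100, at 0.15, and the nearest to FIE1 was Os08g0107600, at 0.073; neither was called, with limma adjusted p of 0.20 and 0.27. The distances share the libraries and their scaling and are given as descriptions.

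**Figure D4:**
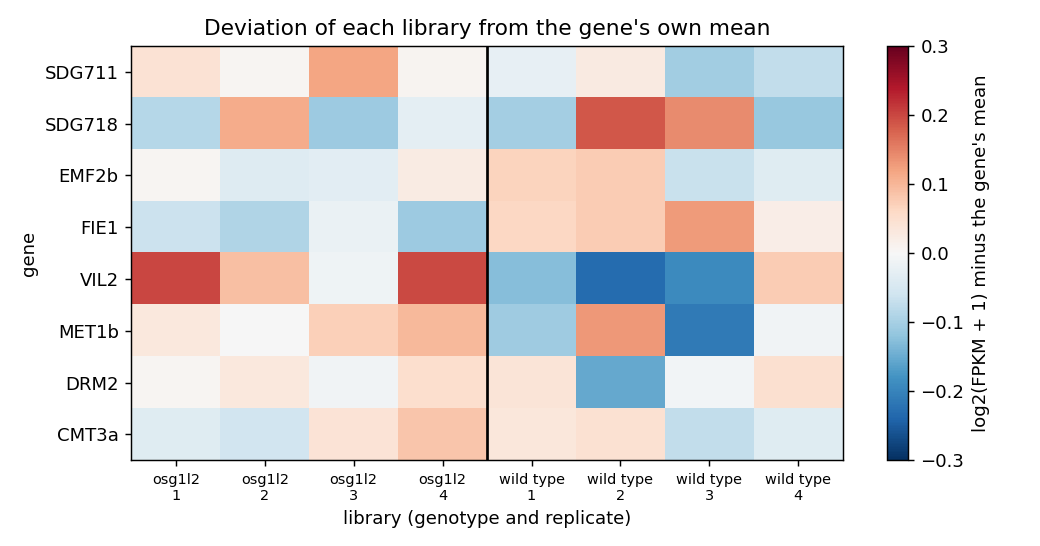
Deviation of log2(FPKM + 1) from each gene's own mean over the 8 libraries (colour, red above and blue below) for each gene (rows) in the osg1l2 libraries (left of the line) and the wild type libraries (right). VIL2 runs from -0.23 in wild type replicate 2 to 0.20 in osg1l2 replicate 1, and FIE1 is below its mean in all osg1l2 libraries and above it in all wild type libraries.

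The comparison made by the authors gave like log2 fold changes. In the authors' deposited table the log2 fold changes were 0.08 for SDG711, -0.10 for SDG718, -0.05 for EMF2b and -0.14 for FIE1. For the methyltransferases the authors' deposited table gave 0.09 for MET1b, 0.06 for DRM2 and 0.02 for CMT3a. The sign was the same as in limma for all 8 genes, and the same libraries underlie both. The smallest q of the 8 in the authors' deposited table was that of VIL2.

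**Figure D5:**
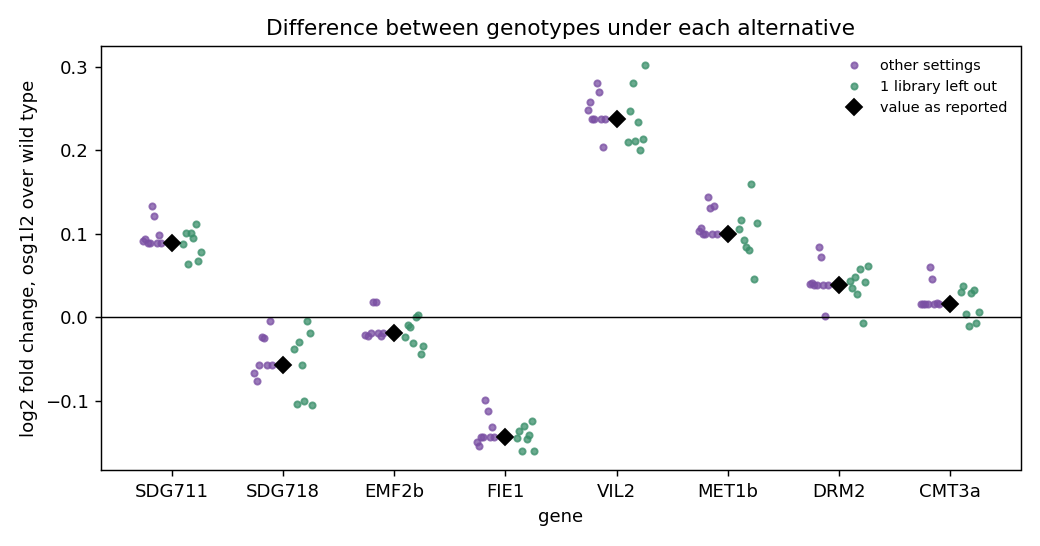
Log2 fold change, osg1l2 over wild type (vertical axis), of each gene as reported (diamonds), under 9 other settings (left points) and with each of the 8 libraries left out (right points). VIL2 stays between 0.20 and 0.30 and FIE1 between -0.16 and -0.10, while EMF2b, DRM2 and CMT3a have values on both sides of 0.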

How the data were processed

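RNA from dissected rice meristems was sequenced in 4 osg1l2 and 4 wild type libraries, grouped by sample title. The authors deposited FPKM values for 37859 genes, on genome build IRGSP-1.0 (from the submitters' processing notes); the sources used here name no aligner or quantifier. The authors also deposited a table with 1 value per genotype (a score, as the header names no unit), a q-value and a log2 fold change. The deposited values hold no counts and whole reads were not recovered from the FPKM, so no count test was run and depth is unknown.

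The 18254 genes whose mean reached 1 FPKM were tested on log2(FPKM + 1), which understates changes of low genes. The test was limma 3.58.1 in R 4.3.3 (intensity trend, two-sided, Benjamini-Hochberg over all tested genes). The procedure was also run on simulated data, with larger changes than any of the 8 genes had. That run does not show how often changes of their size would be called. Log2 fold changes are osg1l2 over wild type. No source used here gives strandedness, so antisense genes and near-identical paralogs may share reads. What was separate between replicates is not stated, so a p-value covers library-to-library spread, which may be technical. All 8 genes were named. They were chosen with earlier results of these data known. Other genes of these pathways were not analysed here, since no source pairs their identifiers with names; the nearest profiles are named for the 2 genes with the largest differences. Summaries used Python 3.11.15, pandas 2.3.3 and matplotlib 3.10.9.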

Additional observations from a re-analysis of the deposited data

How the results depend on the processing

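The count of 0 called among the 8 genes was the same under all 17 alternatives (9 settings and 8 left-out libraries), with a smallest limma adjusted p of 0.091, for FIE1 with no filter. With a filter at 5 FPKM only 6 of the 8 genes were tested. The count of all called genes, 352, moved to 153 at 5 FPKM, 152 with the replicate block and 1097 with library quality weights. At 5 FPKM 9470 genes were tested and 1.62% of them were called, against 1.93% in the main fit. With a library left out the count lay between 155 and 826, the highest without wild type replicate 2. The cause of these moves was not tested. Rescaling changed the split of all called genes from 164 higher and 188 lower to 220 and 135 (median-of-ratios) or 210 and 130 (quantile normalization). Same-numbered libraries were not paired, since the correlations of their deviations from the mean of each genotype were 0.069, -0.017, -0.091 and -0.12. With the replicate block the limma adjusted p was 0.30 for FIE1 and 0.20 for VIL2.

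Values near 0 turned sign: EMF2b was 0.019 with median-of-ratios rescaling, 0.018 with quantile normalization and from -0.044 to 0.0033 with a library left out, above 0 only without wild type replicate 2. With a library left out DRM2 ran from -0.0064 (without wild type replicate 2, the only value below 0) to 0.061. CMT3a ran from -0.0099 (without osg1l2 replicate 4) to 0.037, and was also below 0, at -0.0068, without wild type replicate 3. Median-of-ratios rescaling moved no mean FPKM by 1 SD. The number of the 8 genes whose genotypes did not overlap, 1, lay between 1 and 3 with a library left out, a check added after the data were seen. With fewer libraries this number cannot drop. Of all tested genes, 11.8% did not overlap with all libraries, and between 13.6% and 23.6% with a library left out. The files give no depth, so its limits were not assessed.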
